A study of Mus musculus with 21 samples.

Results

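Chromatin accessibility at the cytosolic ribosomal protein genes was examined in nuclei of mouse quadriceps muscle. The set comprised every protein-coding gene whose symbol is Rpl or Rps followed by a number, together with Rplp0, Rplp1, Rplp2 and Rpsa, without the Rps6k kinases. It held 85 of 21770 protein-coding genes, of which 77 encode core proteins of the ribosome and 8 are paralogues (Rpl3l, Rpl7l1, Rpl10l, Rpl22l1, Rpl36al, Rpl39l, Rps4l and Rps27l). A region was given to the gene with the nearest protein-coding start site, and 157 of the 41411 differentially accessible regions fell to this set.

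Assay for transposase-accessible chromatin with sequencing (ATAC-seq), in which a transposase cuts open DNA, was run on myonuclei of adult male C57/Bl6 wildtype mice, collected with an antibody against PCM1, a protein at the envelope of muscle fibre nuclei. Untrained mice were taken 0, 6 or 72 h after a treadmill run to exhaustion. Trained mice were taken at the same times after such a run, which followed 12 weeks of voluntary wheel running. Sedentary mice neither trained nor ran. Per the paper, trained mice performed better in this kind of test, so the length of the run was not equal between trained and untrained mice. Each of the 7 groups had 3 samples, 21 in all, which the labels do not tie to separate animals. Every trained mouse had also run, so in the trained groups what training did and what the bout did cannot be told apart.

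The values are group means without a per-sample value, error or depth. Each is a concentration from DiffBind, that is, normalised reads of a region averaged over a group and put on a log2 scale, so a difference of -1 stands for 50% fewer reads. A region was listed for a contrast only where the authors' test of 3 exercised against 3 sedentary samples gave a false discovery rate below 0.05. It is called lost below and gained above the sedentary value. A promoter region lay within 1 kb of a start site. An unlisted promoter did not pass that threshold, and its level is unknown.

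The lists held 17868 lost and 3276 gained regions in untrained muscle at 0 h, 29616 and 4462 in trained muscle at 0 h, 4221 and 4139 in untrained muscle at 6 h, 10516 and 1263 in trained muscle at 6 h, and 2597 and 27 in trained muscle at 72 h. None was listed in untrained muscle at 72 h. Of 8 muscle fibre marker genes, 6 had a listed promoter region, with sedentary concentrations of 9.85 (Myh1) to 15.9 (Atp2a1), while Acta1 and Tnnt3 had none. Listed promoters of markers of other muscle-resident cells were those of Pax7 (8.49), Cd68 (8.24) and Dcn (8.30), that is 3 of 11 markers, and the endothelial markers Pecam1, Cdh5 and Kdr had none. Regions of any distance were listed near all of these markers other than Myf5, with 8 near Cdh5, 4 near Pecam1 and 7 near Ptprc. The part of other cells in the results below was not tested.

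Ribosomal proteins assemble with ribosomal RNA into the small (Rps) and large (Rpl) subunit of the ribosome, which must be made in matched amounts, and muscle needs ribosomes for the protein synthesis that follows loading. In mammals these genes are expressed in all tissues from short promoters that often bind ETS family factors, SP1 and YY1. Their mRNAs start with a tract of pyrimidines (the 5′ terminal oligopyrimidine motif), through which mTOR signalling regulates their translation.

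The promoters with the largest loss in trained muscle at 0 h are shown first, since the results turn on them, with that of Rpl32, which was also listed in untrained muscle, and those of 3 members with no region in any list (Rpl10a, Rpl13a and Rpl15). Each sequence runs 5′ to 3′ on the strand of the gene from 60 bases before to 30 bases after the canonical GENCODE M39 start on GRCm39. Runs of capital C and T mark the longest tract of pyrimidines that reaches into the 10 bases before or 30 bases after the start (the first where tracts tie), if it has 7 or more bases and lies wholly inside the printed bases, and CCGGAA in capitals marks the core of an ETS motif.
Rpl21: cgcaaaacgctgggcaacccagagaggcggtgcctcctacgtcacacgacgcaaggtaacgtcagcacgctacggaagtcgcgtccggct
Rpl14: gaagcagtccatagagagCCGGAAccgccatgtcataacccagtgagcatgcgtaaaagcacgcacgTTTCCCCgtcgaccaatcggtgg
Rpl36a: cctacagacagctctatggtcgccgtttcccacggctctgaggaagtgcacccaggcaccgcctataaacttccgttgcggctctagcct
Rpl5: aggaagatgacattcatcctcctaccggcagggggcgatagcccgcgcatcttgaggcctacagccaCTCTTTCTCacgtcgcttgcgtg
Rpl3l: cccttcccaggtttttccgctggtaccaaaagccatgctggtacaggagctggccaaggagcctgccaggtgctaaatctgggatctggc
Rps27l: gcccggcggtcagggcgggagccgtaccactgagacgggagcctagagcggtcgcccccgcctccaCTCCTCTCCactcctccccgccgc
Rpl32: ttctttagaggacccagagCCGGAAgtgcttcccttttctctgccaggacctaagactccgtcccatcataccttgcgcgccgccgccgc
Rpl10a: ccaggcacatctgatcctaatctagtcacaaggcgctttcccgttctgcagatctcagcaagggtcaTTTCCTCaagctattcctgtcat
Rpl13a: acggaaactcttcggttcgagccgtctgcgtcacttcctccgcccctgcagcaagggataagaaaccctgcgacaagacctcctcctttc
Rpl15: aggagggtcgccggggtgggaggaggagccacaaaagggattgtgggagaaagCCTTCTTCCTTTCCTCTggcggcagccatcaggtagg

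In these promoters the pyrimidine tract lay just after the annotated start in Rpl14, Rpl5, Rps27l and Rpl10a, and spanned it in Rpl15. The tracts of Rpl36a, Rpl32 and Rpl13a ran past the printed bases and are left in lower case. Neither Rpl21 nor the muscle paralogue Rpl3l had a tract of that length there.

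Over all 85 members, a pyrimidine tract of at least 7 bases reached into this window in 52.9%, against 29.3% of 21593 protein-coding promoters. The window was set after the annotated starts were seen to lie upstream of the tract, so this contrast is a description only. At the annotated start itself, 25.9% of members and 21.2% of all promoters had a C. In the 300 bases from 250 before to 50 after the start, the ETS core (CCGGAA or TTCCGG, that is both strands) was present in 44.7% of members against 16.9% of all promoters. The SP1 motif (GGGCGG, either strand) was present in 51.8% against 42.6%, and the YY1 motif (GCCATNTT, either strand) in 9.41% against 5.48%. Over the 5857 genes of any kind with a lost promoter in trained muscle at 0 h, SP1 was present in 52.3% and YY1 in 7.21%. The ETS core was present in 25.1% of these and the pyrimidine tract in 27.9%. The SP1 share of members was thus no higher than that of these genes. A TATAAA in the 40 bases before the start was found in 1.18% of members and 2.79% of all promoters. These matches describe letters only.

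After the run, promoter regions given to ribosomal protein genes were listed with lower accessibility than in sedentary muscle in trained muscle at 0 h. Apart from that of Rpl32, none was listed in another contrast. Regions shared with a neighbouring gene are described below. In trained muscle at 0 h, 43 of 85 members (50.6%) had a lost promoter region, where 26.9% of all protein-coding genes had one. In untrained muscle at 0 h only the Rpl32 promoter was lost, that is 1.18% of members against 7.23% of all genes. No member had a lost promoter region in untrained muscle at 6 h, trained muscle at 6 h or trained muscle at 72 h, where 1.07%, 2.99% and 0.703% of all genes had one. No ribosomal protein promoter was gained in any contrast. The shares of all genes with a gained promoter region were 0.864% in untrained and 0.74% in trained muscle at 0 h, 0.804% in untrained and 0.175% in trained muscle at 6 h, and 0% in trained muscle at 72 h. Lost regions made up 86.9% of all regions listed in trained muscle at 0 h, and the part of the normalisation in this direction was not tested. In these bulk samples fewer nuclei of a type and less open chromatin per nucleus cannot be told apart. The trained and untrained lists share the same 3 sedentary samples, and the difference between them was not tested.

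The share of all genes is a low reference for this set, since it includes genes with no accessible promoter in muscle. Other widely expressed gene groups came closer in trained muscle at 0 h. A lost promoter region was found for 37 of 78 mitochondrial ribosomal protein genes (47.4%) and 19 of 40 genes with a proteasome subunit symbol (47.5%). It was found for 12 of 24 genes for subunits and transcription factors of RNA polymerase I and III (50%). The counts were 8 of 14 genes with the elongation factor symbol Eef (57.1%) and 12 of 30 ribosome biogenesis genes (40%). They were 7 of 19 genes of the mTOR pathway (36.8%) and 22 of 73 genes with the initiation factor symbol Eif (30.1%). The Eef list was taken by symbol, and its called genes include enzymes that modify elongation factors, such as Eef2k and Eef2kmt. The proteasome list was also taken by symbol, and its called genes include Psmc3ip, which does not encode a subunit. Apart from the Eef list, the shares of these groups were at or below 50%, against 50.6% of the cytosolic ribosomal protein genes. The differences between groups were not tested. In untrained muscle at 0 h the same groups had 7, 1, 0, 2, 0, 1 and 3 genes with a lost promoter.

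**Figure D1:**
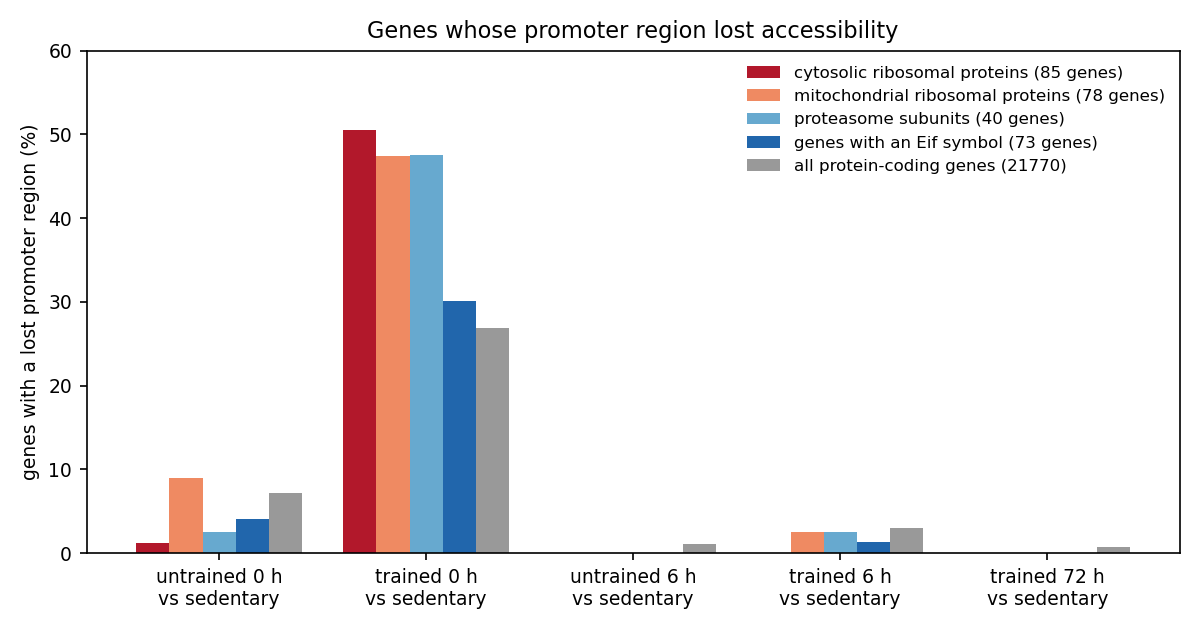
Share of genes (%) with a promoter region of lower accessibility than in sedentary muscle, for each listed contrast. Bars stand for 4 gene groups and for all protein-coding genes; the ribosomal protein bar reaches 50.6% in trained muscle at 0 h, stands at 1.18% in untrained muscle at 0 h and is 0 in the other contrasts.

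Among the 43 large-subunit genes other than the stalk, 26 (60.5%) had a lost promoter in trained muscle at 0 h. The largest loss of a promoter region given to the set was at Rpl21 (chr5:146769366-146770442). Its concentration was 10.71 in trained muscle at 0 h against 11.73 in sedentary muscle, a difference of -1.02. In mean normalised reads this was 1672 in trained muscle at 0 h and 3389 in sedentary muscle. Among the promoter regions given to members, that of Rpl21 was the only one that fell by more than 1 log2 unit. Regions given to a neighbour are described below, and some of them fell by more. Those that did so do not cover the canonical start of a member.

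Rpl14 (chr9:120399922-120401052) followed with 10.57 in trained muscle at 0 h against 11.57 in sedentary muscle, or 1523 against 3044 normalised reads. The X-linked Rpl36a had 9.26 in trained muscle at 0 h against 10.19 in sedentary muscle (-0.93). Rpl5 (chr5:108048049-108049198), which forms a particle with Rpl11 and 5S ribosomal RNA that also binds the p53 regulator Mdm2, had 10.42 in trained muscle at 0 h against 11.35 in sedentary muscle (-0.93). Its partner Rpl11 had 10.11 in trained muscle at 0 h against 10.89 in sedentary muscle (-0.78). Both members of that particle were thus listed, with Rpl5 the more reduced.

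At the other end of the range, Rpl10, which joins the large subunit late in its maturation, had 11.46 in trained muscle at 0 h against 12.06 in sedentary muscle (-0.60). Rpl24 differed by -0.61 and Rpl23a by -0.61. The 17 large-subunit genes that were given no promoter region included Rpl4, Rpl7, Rpl7a, Rpl9, Rpl10a, Rpl13, Rpl13a, Rpl15, Rpl18 and Rpl19. Among them, Rpl4, Rpl7 and Rpl18 had a lost region that was given to a neighbour, as described below.

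Rpl32 was the only member whose promoter was listed in 2 contrasts (chr6:115784894-115786353). Its concentration was 10.40 in untrained muscle at 0 h (-0.57) and 10.16 in trained muscle at 0 h (-0.80), against 10.97 in sedentary muscle. In untrained muscle the mean was 1350 normalised reads and in trained muscle 1145, against 2000 in sedentary muscle.

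The stalk proteins Rplp0, Rplp1 and Rplp2 form the arm of the large subunit that recruits elongation factors, and all 3 had a listed region in trained muscle at 0 h. Rplp1 had 10.74 in trained muscle at 0 h against 11.57 in sedentary muscle (-0.83), and Rplp2 had 10.94 in trained muscle at 0 h against 11.77 in sedentary muscle (-0.82). The region given to Rplp0 was weaker, with 8.21 in trained muscle at 0 h against 8.87 in sedentary muscle (-0.65). It covers the start of a minor transcript, 2781 bp from the canonical Rplp0 start, and no region over the canonical start was listed.

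Of 31 small-subunit genes, 11 (35.5%) had a lost promoter in trained muscle at 0 h, among them Rps3, Rps4x, Rps6, Rps7, Rps9, Rps14, Rps15a, Rps23 and Rps26. This share depends on the assignment, since Rps18, Rps25, Rps27 and Rps27a had a lost region that was given to a neighbour. The differences ran over a narrow range, lowest at Rps4x (8.59 in trained muscle at 0 h against 9.44 in sedentary muscle, -0.86) and highest at Rps3 (11.04 in trained muscle at 0 h against 11.71 in sedentary muscle, -0.66). Rps6, whose protein is the substrate of the S6 kinases, had 11.11 in trained muscle at 0 h against 11.85 in sedentary muscle (-0.74). The median difference was -0.75 over the 11 small-subunit regions and -0.80 over the 29 of the large subunit with the stalk. Rpsa, which was first described as a laminin receptor, had no region in any list.

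Among the 8 paralogues, 3 had a lost promoter in trained muscle at 0 h. Rpl3l, a paralogue of Rpl3 that is restricted to heart and skeletal muscle, had 2 lost regions. Over its canonical start (chr17:24946280-24948734) the concentration was 10.70 in trained muscle at 0 h against 11.62 in sedentary muscle (-0.92), and over an internal start, 3374 bp from the canonical one, it was 11.54 in trained muscle at 0 h against 12.39 in sedentary muscle (-0.84). The ubiquitous Rpl3 differed by -0.72, with 11.04 in trained muscle at 0 h against 11.76 in sedentary muscle. Rps27l, a p53-inducible paralogue of Rps27, had 10.82 in trained muscle at 0 h against 11.72 in sedentary muscle (-0.90). Rpl7l1 had 9.83 in trained muscle at 0 h against 10.57 in sedentary muscle (-0.74). The promoters of Rpl10l, Rpl22l1, Rpl36al, Rpl39l and Rps4l were not listed.

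**Figure D2:**
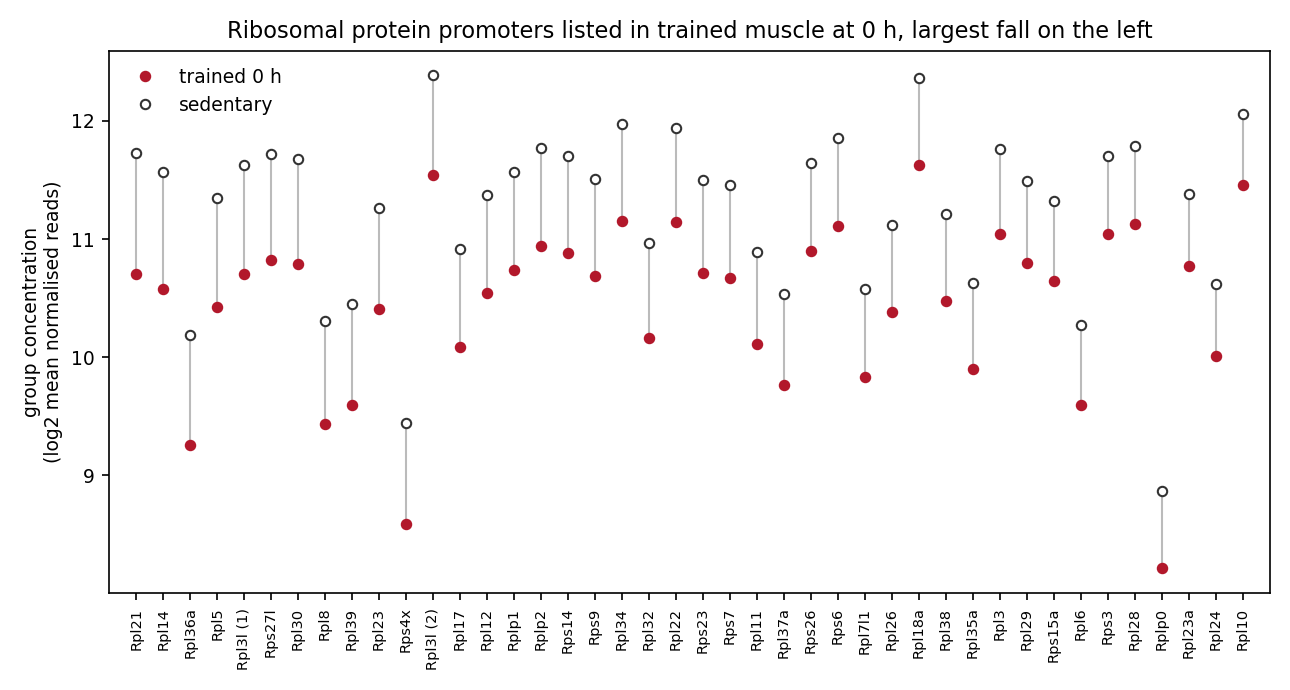
Concentration (log2 mean normalised reads) of 42 of the 44 ribosomal protein promoter regions listed in trained muscle at 0 h, with trained 0 h as filled and sedentary as open points, ordered by the difference. Each point is a group mean of 3 samples without an error; the differences run from -1.02 at Rpl21 to -0.60 at Rpl10.

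The 44 promoter regions of these 43 genes moved by similar amounts. The median difference between trained muscle at 0 h and sedentary muscle was -0.79, which corresponds to 42.1% fewer reads, and the range was -1.02 to -0.60. The median over all 6722 lost promoter regions of that contrast was -0.91. In the other groups it was -0.78 (mTOR pathway), -0.80 (proteasome), -0.81 (ribosome biogenesis) and -0.86 (RNA polymerase I and III). For the Eif, mitochondrial ribosomal protein and Eef genes it was -0.86, -0.87 and -0.92. A median smaller in size than that of all lost promoters was thus not particular to this set. Only 1 of the 44 regions (2.27%) fell by more than 1 log2 unit, against 32.8% of all lost promoter regions, and 23.8% of all lost promoter regions had a smaller loss than the ribosomal protein median.

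The listed ribosomal protein promoter regions had high concentrations in sedentary muscle. Of the 44, 42 had a sedentary concentration between 10 and 13, and the median was 11.47, against 10.80 over all lost promoter regions. The member regions were also wider, with a median of 1314.5 bp against 1077 bp, and a concentration counts the reads of a whole region. The smaller difference was also seen at matched concentration, where width was not matched. Between 10 and 11 the median was -0.77 over 12 member regions and -0.91 over all 1666 lost promoter regions. Between 11 and 12 it was -0.81 over 26 member regions and -0.92 over 1856. Between 12 and 13 it was -0.71 over 4 member regions and -0.92 over 927. These are descriptions, since both sets hold only regions past the authors' threshold.

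**Figure D3:**
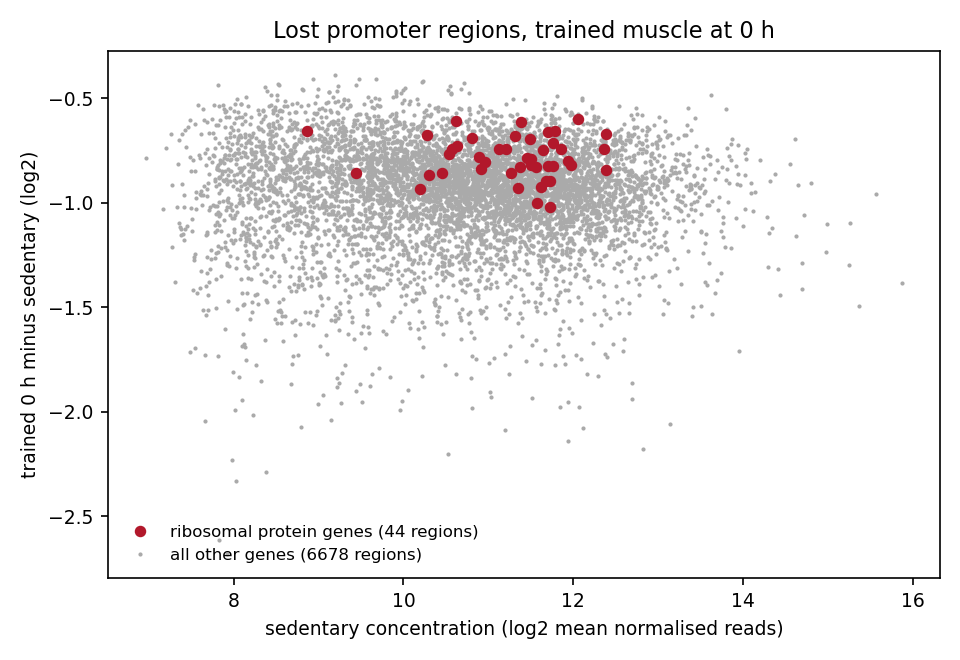
Difference between trained muscle at 0 h and sedentary muscle (log2) against the sedentary concentration (log2 mean normalised reads) for every lost promoter region. The 44 ribosomal protein regions lie in the upper part of the cloud, between -1.02 and -0.60, and mostly between 10 and 13 on the horizontal axis.

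The listed and the unlisted members were close in some motifs and not in others. The ETS core was present in 44.2% of the 43 members with a lost promoter in trained muscle at 0 h and in 45.2% of the other 42. The pyrimidine tract was present in 53.5% and 52.4%. Those 42 include the 7 genes described below whose lost region was given to a neighbour. The SP1 motif was present in 46.5% and 57.1%, and the YY1 motif in 11.6% and 7.14%. The median GC share was 53% in the 43 members with a lost promoter and 58.3% in the other 42, with medians of 15 and 22 CpG dinucleotides in the 300 bases. Over all protein-coding genes the order was the other way round, with a median GC share of 56% and 15 CpG in the 5857 genes with a lost promoter, against 53.3% and 8 CpG in the other 15736. No test was made of these differences.

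Genes that host small nucleolar RNAs in their introns were listed about as often as the rest, with 16 of 30 (53.3%) against 27 of 55 (49.1%). All 4 members on chromosome X (Rpl10, Rpl36a, Rpl39 and Rps4x) had a lost promoter in trained muscle at 0 h, where 19.3% of 982 protein-coding genes on that chromosome had one. Rpl39 had 9.59 in trained muscle at 0 h against 10.45 in sedentary muscle (-0.86).

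Some ribosomal protein genes share a promoter with a neighbour, and their region was then given to the neighbour. Counting every region within 1 kb of a ribosomal protein start site added 7 genes in trained muscle at 0 h, which makes 50 of 85 (58.8%). Rpl7 shares its region with Rdh10 (11.59 in trained muscle at 0 h against 12.43 in sedentary muscle, -0.85). Rps25 shares its region with Trappc4 (10.61 in trained muscle at 0 h against 11.50 in sedentary muscle, -0.89). Rps27 shares its region with Rab13 (-0.90), Rps27a with Clhc1 (-0.79), Rps18 with Vps52 (-0.65) and Rpl4 with Zwilch (-0.67). A start of Rpl18 other than the canonical one lies within 1 kb of a 14637 bp region nearest to Sphk2 (chr7:45351697-45366333). The canonical Rpl18 start, at chr7:45367445, lies outside that region. The Sphk2 region was the only one of these that was listed at 6 h. It had 13.99 in untrained muscle at 0 h (-0.98), 13.74 in trained muscle at 0 h (-1.24), 13.96 in untrained muscle at 6 h (-1.02) and 13.79 in trained muscle at 6 h (-1.19), against 14.98 in sedentary muscle. A separate region of 1515 bp beside it (chr7:45366646-45368160) covers the canonical Rpl18 start. This smaller region was listed in trained muscle at 0 h only, with 10.95 against 11.80 in sedentary muscle (-0.85). Rpl3 and Rps14, which had a lost promoter region of their own, also had another start within 1 kb of a neighbour's region. These neighbours' regions (chr15:79975289-79976061 and chr18:60878394-60884143) lie away from the canonical starts, at chr15:79967607 for Rpl3 and chr18:60907668 for Rps14. In trained muscle at 0 h the difference was -1.21 near Rpl3 (given to Syngr1) and -1.07 near Rps14 (given to Ndst1). The region near Rps14 was also lost in untrained muscle at 0 h (-0.85).

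Ribosomal proteins that carry other symbols were taken apart. Rack1, the scaffold protein at the head of the small subunit, was lost in both 0 h groups, with 10.13 in untrained muscle (-0.74) and 9.96 in trained muscle (-0.91), against 10.87 in sedentary muscle. The promoter of Fau, whose product is made as a fusion with a ubiquitin-like protein, was not listed. Among 9 genes for factors known at ribosomal protein promoters, only that of Gabpb1, a partner of an ETS protein, was lost in trained muscle at 0 h (10.12 against 11.17 in sedentary muscle, -1.04).

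In some of the other groups, single promoters differed by more than any promoter region given to a ribosomal protein gene in trained muscle at 0 h. Eef1a2, the elongation factor of adult muscle, had 12.33 in trained muscle at 0 h against 13.70 in sedentary muscle (-1.37). Eif2ak2, the double-stranded RNA-dependent kinase that blocks initiation, had 8.51 against 9.73 in sedentary muscle (-1.22), and the mitochondrial ribosomal protein gene Mrps36 had 10.45 against 11.70 in sedentary muscle (-1.25). The largest promoter losses of the mTOR pathway and of ribosome biogenesis were smaller than that of Rpl21. They were at the mTOR inhibitor Deptor, with 11.09 in trained muscle at 0 h against 12.03 in sedentary muscle (-0.94), and at Nmd3, which exports the large subunit from the nucleus, with 10.79 against 11.75 in sedentary muscle (-0.96).

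Beyond 1 kb, 113 regions had a ribosomal protein gene as their nearest gene, spread over 39 members. In untrained muscle at 0 h, 22 members (25.9%) had a lost region and 6 (7.06%) a gained region, against 29.2% and 8.46% of all genes. At 0 h in trained muscle, 34 (40%) had a lost and 7 (8.24%) a gained region, against 37.6% and 11.5% of all genes. In untrained muscle at 6 h the members numbered 5 (5.88%) with a lost and 7 (8.24%) with a gained region, against 11.5% and 11.7%. At 6 h in trained muscle they numbered 21 (24.7%) and 4 (4.71%), against 21.2% and 4.68%. At 72 h in trained muscle, 7 members (8.24%) had a lost region and none a gained region, against 7.92% and 0.124%. At this distance the set was thus near the background in most contrasts, and nearest-gene assignment does not show that a region acts on that gene.

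By regions, 44 were lost and 10 gained in untrained muscle at 0 h, 78 and 11 in trained muscle at 0 h, 5 and 11 in untrained muscle at 6 h, 26 and 4 in trained muscle at 6 h, and 7 and 0 in trained muscle at 72 h. The gained share was 68.8% of the 16 member regions in untrained muscle at 6 h, against 49.9% over all genes. Between 1 and 10 kb from the start site only lost regions were listed in 4 of the 5 contrasts. The exception was a region near Rps4l in untrained muscle at 6 h, with 8.24 against 7.09 in sedentary muscle.

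**Figure D4:**
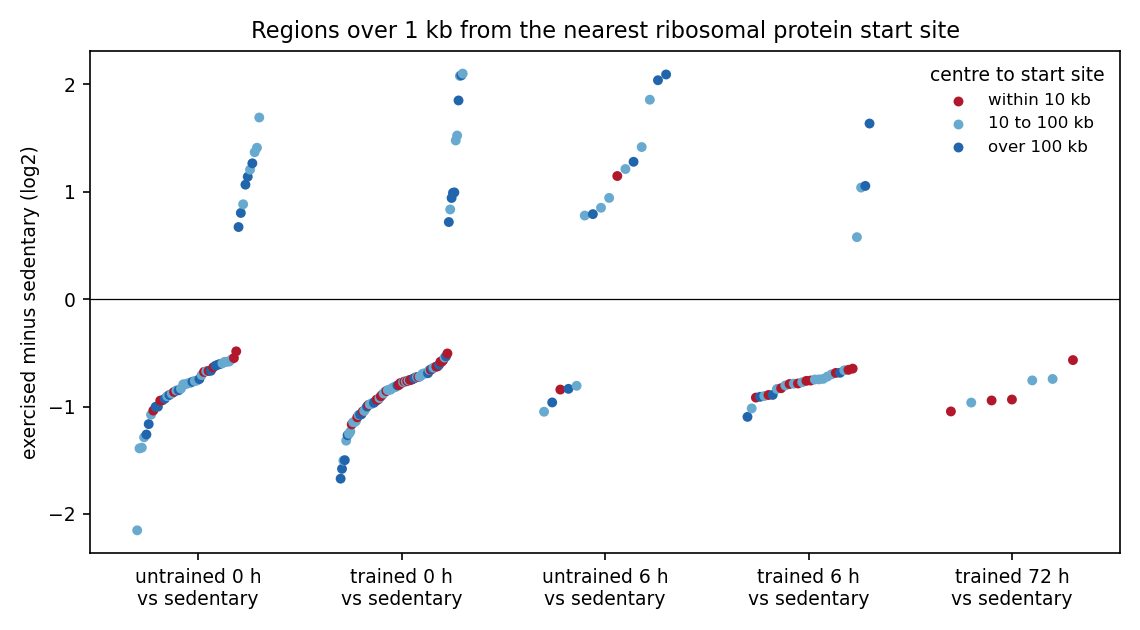
Difference between each exercised group and sedentary muscle (log2) for regions over 1 kb from the nearest ribosomal protein start site, sorted within each contrast and coloured by distance. Gained regions lie at +0.58 to +2.10 and are mostly over 10 kb away; trained muscle at 72 h has 7 regions, all below 0.

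The gained regions fell to 9 members. The largest gain was near Rpl37a (chr1:72763559-72763851), with 7.15 in trained muscle at 0 h (+2.10) and 6.91 in untrained muscle at 6 h (+1.86), against 5.05 in sedentary muscle. This region had the lowest sedentary value of the gained member regions. Other members with gained regions included Rpl30, Rpl31, Rpl38, Rplp1, Rps4l, Rps12 and Rps24. Near Rpl30 a region had 8.51 in untrained muscle at 6 h against 7.73 in sedentary muscle (+0.78). Near Rps12 the difference was +1.26 in untrained and +0.99 in trained muscle at 0 h for the same region.

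Rps24 had the most regions beyond 1 kb, 11 in all, of which 3 were gained and the rest lost. The largest loss of any member region was among them, in untrained muscle at 0 h (chr14:24628645-24629197), with 6.39 against 8.54 in sedentary muscle (-2.15). The nearby region chr14:24625148-24625658 moved the other way, with 8.59 in untrained muscle at 0 h (+1.41), 9.26 in trained muscle at 0 h (+2.08) and 8.39 in untrained muscle at 6 h (+1.21), against 7.18 in sedentary muscle. These lie 88086 and 84568 bp from the Rps24 start, outside any protein-coding gene.

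Across the contrasts, 18 member regions were listed in 3 or more lists, all of them beyond 1 kb. In every list that held them, 14 were lower and 4 higher than in sedentary muscle. None was listed in all 5.

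Among the 4 regions listed in 4 contrasts, those near Rplp1, Rpl38 and Rpl31 were gained. The region near Rplp1 (chr9:61661068-61661469) had 7.61 in untrained muscle at 0 h, 8.89 in trained muscle at 0 h, 8.84 in untrained muscle at 6 h and 8.44 in trained muscle at 6 h, against 6.81 in sedentary muscle. The region near Rpl38 had 6.97, 7.68, 7.92 and 6.88 in the same order, against 5.83 in sedentary muscle. At these and at the region near Rpl31, the gain in untrained muscle was larger at 6 h than at 0 h. In trained muscle the gain at each was larger at 0 h than at 6 h. The region near Rpl31 had 6.95, 7.54, 7.48 and 7.11 in that order, against 6.07 in sedentary muscle, and it lies within Npas2, a transcription factor of the circadian clock. The lost region, nearest to Rps23 and within the autophagy gene Atg10, had 8.58, 8.28, 8.28 and 8.15 in that order, against 9.25 in sedentary muscle. Whether these orders exceed the spread between samples was not tested.

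**Figure D5:**
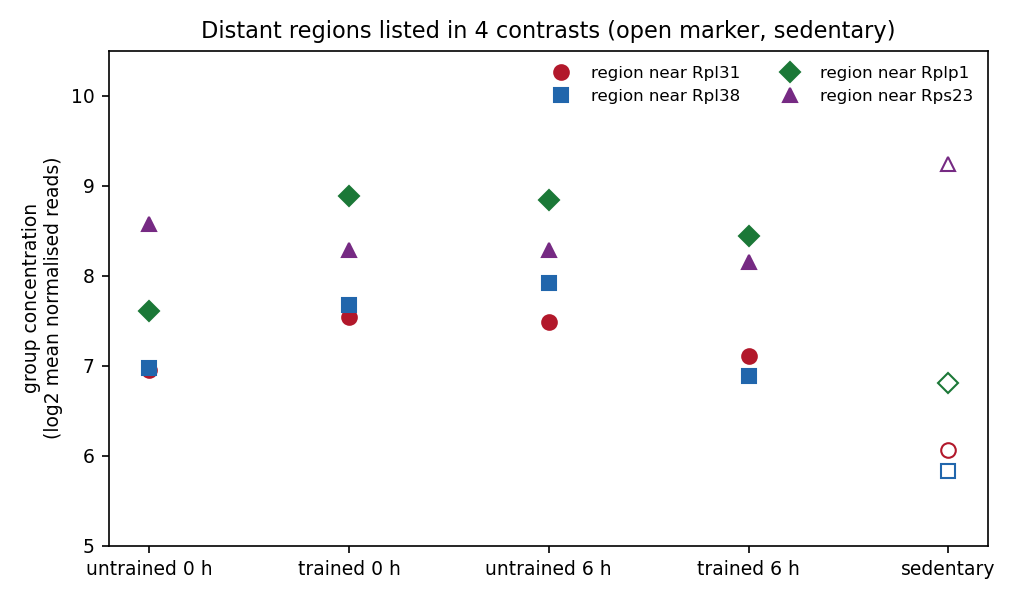
Concentration (log2 mean normalised reads) of the 4 distant regions listed in 4 contrasts, with exercised groups as filled and sedentary as open markers, each a mean of 3 samples. The regions near Rplp1, Rpl38 and Rpl31 stand above their sedentary value in every exercised group shown, and the region nearest to Rps23 stands below it.

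All 7 member regions listed in trained muscle at 72 h were lower than in sedentary muscle. The largest loss was near Rps15, within Dazap1, with 9.13 against 10.17 in sedentary muscle (-1.05). A region in the Npas2 gene nearest to Rpl31 had 7.89 against 8.85 in sedentary muscle (-0.96). Near Rps16 the value was 6.99 against 7.93 in sedentary muscle (-0.94), and within Rps20, 3127 bp from its start, it was 8.83 against 9.77 in sedentary muscle (-0.93). The promoters of these members, Rps15, Rpl31, Rps16 and Rps20, were not listed in any contrast.

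In trained muscle at 6 h the largest loss beyond 1 kb was at the region nearest to Rps23 (-1.10). In trained muscle at 0 h the largest loss was near Rpl38, with 8.38 against 10.05 in sedentary muscle (-1.67).

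By the nearest start site, 61 of the 85 members were given a region in at least 1 list and 24 were given none. The members given no region included Rpl4, Rpl7, Rpl7a, Rpl9, Rpl10a, Rpl10l, Rpl13a, Rpl15, Rpl18, Rpl27, Rpl35, Rpl36, Rpl36al, Rpl37, Rpl39l, Rpl41, Rps2, Rps25, Rps27, Rps27a, Rps28, Rps29 and Rpsa. Of these, Rpl4, Rpl7, Rpl18, Rps25, Rps27 and Rps27a had a lost region in trained muscle at 0 h that was given to a neighbour.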

How the data were processed

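Per the labels and the methods, the authors used Trimmomatic 0.39 for trimming, Bowtie2 2.4.4 for mapping to GRCm39 with several alignments kept per read, Genrich 0.6.1 for region calls and DiffBind 3.4.11 for the comparison of exercised with sedentary samples. Ribosomal protein genes have many processed copies in the genome, and the share of reads placed at several sites is not given in the sources used here. The deposited tables hold a log2 concentration per group, as made by the authors, for regions below a false discovery rate of 0.05. Their fold change, p-value and FDR columns hold the authors' comparison and were not used here. Of the 41411 regions, those in more than 1 list had an identical sedentary value in each list. Groups were therefore taken to share a scale, which regions in a single list could not show.

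With Python 3.11.15 and pandas 2.3.3, each region was given to the nearest start of a protein-coding transcript in GENCODE M39 on GRCm39 (180331 transcripts), by its nearest edge, and the sedentary concentration was subtracted. The deposited gene names were not used, since 38 of the 44 ribosomal protein promoter regions carried another gene's name there. The assignment was tested on simulated regions (2000 per rule, 0 wrong). Sequences were read from GRCm39. The authors' listing stands as the only test, because group means allow none. Named were the 6 largest promoter differences and the 4 largest distant differences of each contrast, every member with a gained region, the stalk proteins, Rpsa, paralogues, and up to 2 genes of each translation list. A few members are not reported here by name. Other genes named were chosen after their values were seen. The members and lists were chosen with earlier results of these data known, and the pyrimidine tract window was set after the annotated starts were seen to lie a few bases upstream of the tract.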

Additional observations from a re-analysis of the deposited data

How the results depend on the processing

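No paired analysis was possible because the deposited tables hold group means without sample values; for the same reason no replicate could be left out. In trained muscle at 0 h the count of ribosomal protein genes with a lost promoter was 39 to 50 under 11 of 12 alternatives, against 43 as reported, with medians of -0.80 to -0.78. With the deposited gene names and promoter class it was 13 (median -0.89), and these names then also gave 3 genes in untrained muscle at 0 h (median -1.18), 1 in untrained muscle at 6 h, 4 in trained muscle at 6 h and 1 in trained muscle at 72 h; most promoters carried another gene's name there. Counting any ribosomal protein start within 1 kb gave 3 genes in untrained muscle at 0 h (median -0.85) and 1 each in untrained and trained muscle at 6 h, through regions shared with neighbours. In these contrasts the added regions, near Rpl18 and Rps14, do not cover the canonical start of either gene. A window of 3 kb gave 1 gene in untrained muscle at 6 h, 2 in trained muscle at 6 h and 2 in trained muscle at 72 h. With Rack1 and other ribosomal proteins whose symbols differ, chosen as an alternative after seeing the data, untrained muscle at 0 h had 2 genes (median -0.65). Of 89 alternatives, 74 left the value within its limits, 15 moved it and none reversed it. Medians were not computed for the contrasts with no promoter region. Depth, replicate spread and the levels of unlisted promoters are unknown, so an unlisted promoter may differ by less than the authors' test could detect.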
